A study of Rattus norvegicus with 9 samples.

Results

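Collagens, laminins and integrins were read from RNA sequencing of primary rat cortical cultures, as the genes whose symbols begin with Col, Lam or Itg followed by the usual chain number or letter. The pattern found 81 of the 22050 genes listed, in 43, 10 and 28 symbols for the 3 families. Of these, 5 are not chains of the families (Col4a3bp, a ceramide transfer protein gene, Itgb1bp1, Itgb1bp2, Itgb3bp and Itgbl1) and were counted apart, which left 42 collagen, 10 laminin and 24 integrin genes. The symbols Col1a2, Col6a3, Col21a1, Lama3, Lamb4, Itgam and Itgb5 were sought as chains of the families and were not found. Family counts and summed levels leave these chains out. Cells were taken from embryos of Sprague Dawley rats on day 19 (E19) and grown as primary cortical neurons. The 9 libraries formed 3 groups of 3. Controls were untreated. The OGD group went through oxygen-glucose deprivation, 4.5 h at 1% oxygen in medium free of glucose and pyruvate, followed by a return to normal oxygen and regular medium. The deposited tables call this group vehicle. The last group received Wnt3a (100 ng/ml) and Rspondin 1 (50 ng/ml), stated as 24 h, under the same kind of deprivation and return. The labels give the hours and oxygen level of deprivation for the OGD group alone, and no source used here gives the time of harvest. The study asked which genes Wnt3a plus Rspondin 1 regulate in neurons under OGD.

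Collagens are secreted proteins whose chains wind in threes into a triple helix. Fibrillar collagens form fibrils, fibril-associated collagens bind to them, and collagen IV forms the sheet of basement membranes. Laminins are trimers of 1 alpha, 1 beta and 1 gamma chain that start a basement membrane at the cell surface. Integrins are receptors of 1 alpha and 1 beta chain that bind collagens, laminins or other ligands and tie them to the actin skeleton through adaptor proteins. In the developing cortex, laminin and collagen IV lie in the membrane at the pial surface and around vessels, and radial glia hold on to it through integrins.

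Total counts ran from 14285914 to 25048521 per library. On principal components of log2 CPM (counts scaled to library depth) the controls lay at -95.8 to -92.9 and the other 6 libraries at 38.1 to 53.1 on the first axis, which held 84.1% of the variance. OGD replicate 1 stood at 38.8 on the next axis (4.63%), the others at -13.9 to 10.5. The labels name cortical neurons, and all 12 neuron markers were found, but glial markers were abundant in every library. Summed FPKM (fragments per kilobase of gene length, scaled to library depth) of neuron markers was 2940 to 3080 in controls and 523 to 700 after OGD, and that of 11 astrocyte markers 2510 to 2690 and 6730 to 7330. In OGD against control, all 12 neuron markers fell (median log2 change -2.50), 9 of 10 tested astrocyte markers rose (1.20), and all 9 tested of 14 microglia markers rose (2.16; summed FPKM 4.47 to 6.60 against 25.2 to 28.3). Of 8 tested neural progenitor markers, 7 rose and 1 fell (1.47; summed FPKM 1040 to 1180 against 4010 to 4580), and of 10 oligodendrocyte lineage markers, 6 rose and 3 fell (0.87; 436 to 522 against 1100 to 1110). Markers of vessels and connective tissue were mixed. Of 10 endothelial markers found, 5 were tested, with 2 higher and 2 lower (summed FPKM 31.1 to 35.9 against 16.1 to 18.7), and Cldn5 had no read. Ramp2 alone made up most of that sum, with a mean of 31.1 FPKM in controls and 14.6 in OGD. Esam fell as well (-1.41), while Kdr (2.20) and Tek (1.78) rose. Of 16 markers of mural cells and fibroblasts, 8 were tested, with 5 higher and 3 lower (101 to 127 against 745 to 981). The sum rose mostly through the contractile genes Tagln and Myl9. Pdgfrb (1.22), Acta2 (4.16) and Ogn (2.61) rose too, while Abcc9 (-2.69), Dcn (-2.08) and Lum (-3.02) fell, and Tbx18 had no read. In such bulk samples, fewer cells of a type and less RNA per cell cannot be told apart. The part these markers play in the results below was not tested. The labels do not say whether replicates are separate cultures or animals. The p-values therefore cover only the scatter of these samples, and that scatter may be technical.

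After OGD the 3 families moved both ways. The direction differed between some chains that assemble together, such as Col4a1 and Col4a2, and was shared by others, such as Lamb2 and Lamc1. A quasi-likelihood test in edgeR, fitted to all genes and adjusted by Benjamini-Hochberg, was read at an adjusted p of 0.05. Of the 76 chains, 64 had enough reads to be tested, and 28 of these were higher and 25 lower in OGD than in control (82.8%). Among all 13693 tested genes, 73.1% passed the same threshold, 36.3% higher and 36.8% lower. The median log2 change over all tested genes was 0.02. The plot of log2 changes after OGD shows the size and error of these changes.

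**Figure D1:**
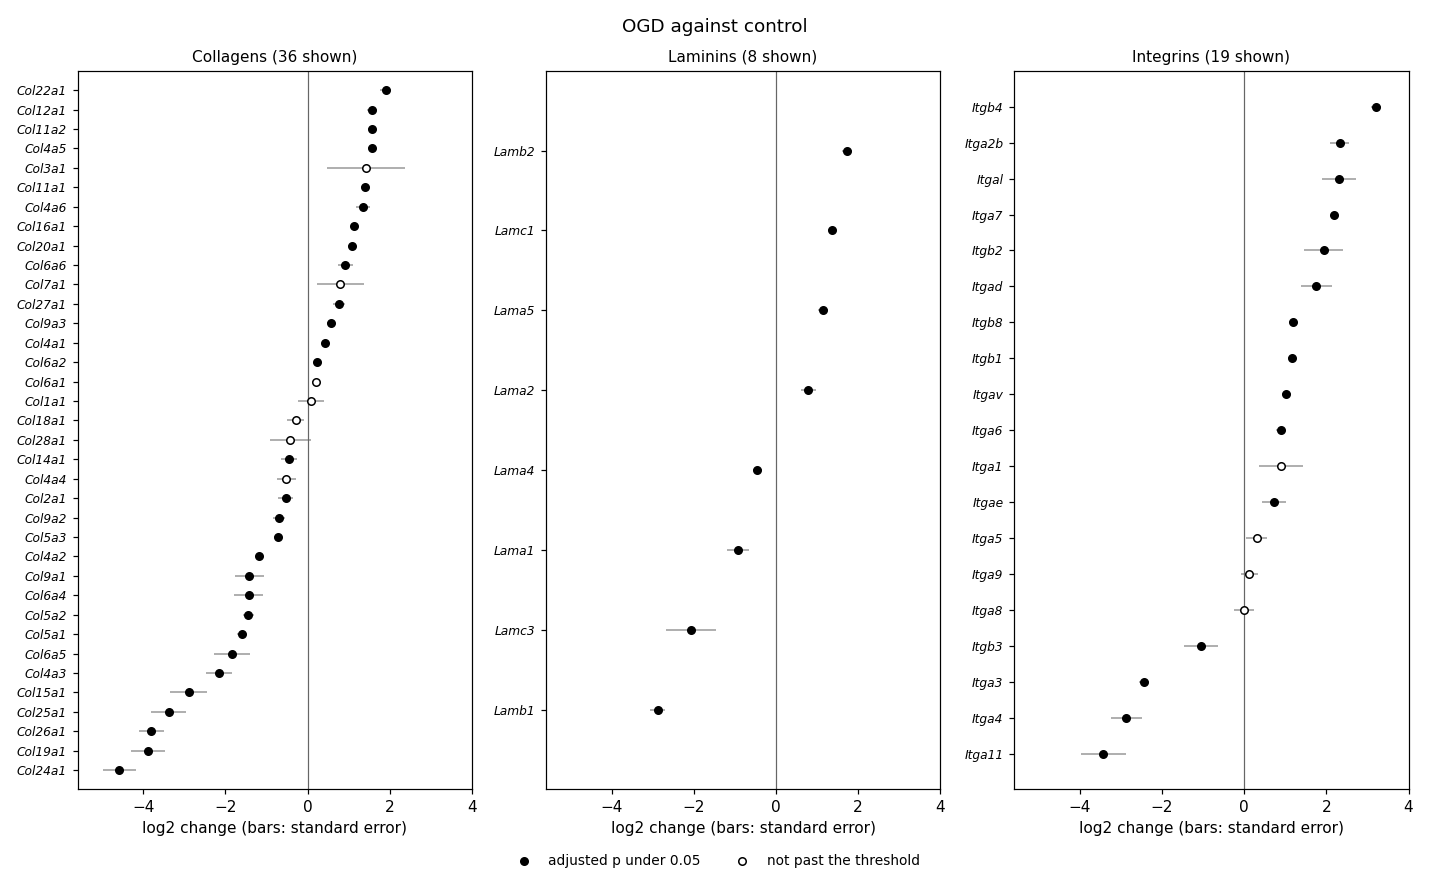
Log2 change of OGD against control (x axis, bars are the standard error) for the tested chains of collagens (36 shown), laminins (8 shown) and integrins (19 shown), ordered by change; filled points have an adjusted p under 0.05. Collagens ran from -4.58 to 1.90, laminins from -2.88 to 1.72 and integrins from -3.43 to 3.20, with calls on both sides of 0 in each family.

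Of the 42 collagen genes, 36 were tested after OGD, 13 were higher and 16 lower, with a median log2 change of -0.36, and the libraries of the groups did not overlap for 32 (75.1% of all tested genes). Here and below, overlap over a family was judged on composition-scaled CPM, while levels are FPKM, which can differ for close values. The 6 that were not tested were Col8a1, Col8a2, Col10a1, Col13a1, Col17a1 and Col23a1, each at 0.22 FPKM or less in every library. Summed over the 42 genes, FPKM was 165 to 174 in controls, 240 to 245 in OGD and 214 to 226 with Wnt3a plus Rspondin 1. Most of the rise of this sum lay in Col16a1 and Col11a2. Their mean FPKM was 26.8 and 15.8 in controls, 62.5 and 49.5 in OGD, and 54.2 and 42.6 with Wnt3a plus Rspondin 1.

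The fibril-associated collagen gene Col16a1 had the highest mean level, at 26.52, 28.30 and 25.55 FPKM in controls and 65.19, 63.32 and 58.90 in OGD. All OGD libraries lay above all controls, and the change was 1.14 ± 0.07 on the log2 scale (± SE, adjusted p = 1.82e-08). Col11a2, a minor fibrillar chain known from cartilage, stood next, at 16.19, 15.47 and 15.69 FPKM in controls against 50.47, 49.96 and 48.14 in OGD. It rose by 1.56 ± 0.08 (adjusted p = 3.65e-09), and its partner chain Col11a1 rose by 1.39 ± 0.10, from 2.80 ± 0.237 to 7.80 ± 0.923 FPKM (mean ± SD, n = 3). Col9a3, a chain of the fibril-associated collagen IX, had 11.39 to 12.51 FPKM in controls and 17.97 to 19.17 in OGD and rose by 0.57 ± 0.09. The other collagen IX chains went the opposite way, with Col9a2 at -0.70 ± 0.14 and Col9a1 at -1.42 ± 0.35. The FPKM ratio of Col9a1 to Col9a3 was 0.0423 to 0.072 in controls and 0.0107 to 0.0178 in OGD.

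All 9 fibril-associated genes passed the threshold, 5 higher and 4 lower. The rises took in Col22a1 (1.90 ± 0.14), which stood at 0.74, 0.87 and 0.68 FPKM in controls and at 3.28, 2.86 and 2.84 in OGD, the largest rise of any collagen gene tested. They also took in Col12a1 (1.57 ± 0.12, from 3.38 ± 0.181 to 10.7 ± 1.12 FPKM) and Col20a1 (1.08 ± 0.10). Col19a1 fell, from 2.33, 2.17 and 2.06 FPKM in controls to 0.19, 0.09 and 0.21 in OGD, a change of -3.89 ± 0.41 (adjusted p = 1.64e-06). Its counts were 115 to 175 in controls and 7 to 11 in OGD. Col14a1 changed by -0.46 ± 0.19 (adjusted p = 0.0456), a call that was lost without any 1 control library (adjusted p = 0.0765 to 0.131), without OGD replicate 1 (0.084) or 2 (0.149), with library totals (0.1) and in DESeq2 (0.0775).

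The 10 fibrillar genes split into 3 higher, 5 lower and 2 without a call. Besides the collagen XI chains, Col27a1 rose by 0.76 ± 0.15. The chains of collagen V, which regulates fibril width, fell together: Col5a1 by 1.60 ± 0.11, Col5a2 by 1.44 ± 0.13 and Col5a3 by 0.73 ± 0.09. Col5a1 stood at 7.30, 7.20 and 6.64 FPKM in controls and at 2.78, 2.30 and 2.29 in OGD, and no library of one group reached the other. Col24a1 fell by 4.58 ± 0.41 (adjusted p = 3.55e-07), the largest fall among the collagens, with 132, 84 and 135 counts in controls and 2, 4 and 7 in OGD. In FPKM it went from 1.62, 1.33 and 1.33 to 0.03, 0.04 and 0.11. Col2a1, the main cartilage collagen gene, fell by 0.53 ± 0.18 (adjusted p = 0.021), a call lost without control replicate 1 (0.0919) or OGD replicate 2 (0.0601).

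The collagen genes best known from connective tissue, Col1a1 and Col3a1, had no call. Col1a1, a chain of collagen I, had 0.58, 0.81 and 0.36 FPKM in controls and 0.66, 0.46 and 0.83 in OGD, with overlapping groups and a change of 0.08 ± 0.31 (adjusted p = 0.832). Without control replicate 3 the change was -0.19 and without OGD replicate 3 it was -0.13. Col3a1, the collagen III chain that binds the receptor Adgrg1 at the pial surface, had 0.37, 0.15 and 0.11 FPKM in controls and 0.13, 0.22 and 1.44 in OGD. Its change of 1.41 ± 0.95 (adjusted p = 0.211) rested on OGD replicate 3, which had 108 counts against 9 and 23 in replicates 1 and 2, and without that library it was -0.28.

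Of 4 transmembrane collagen genes 1 was tested, and of 3 genes outside the classes, Col26a1 passed while Col28a1 (-0.42 ± 0.50, adjusted p = 0.46) and Col7a1 (0.80 ± 0.57, adjusted p = 0.22) did not. Without control replicate 2, Col7a1 passed (adjusted p = 0.00499). Col26a1 went from 8.81, 7.21 and 6.54 FPKM in controls to 0.80, 0.32 and 0.55 in OGD, a change of -3.80 ± 0.30 (adjusted p = 9.83e-08). Col25a1, a transmembrane collagen made by neurons, fell by 3.38 ± 0.43, from 1.45, 1.14 and 1.08 FPKM to 0.15, 0.06 and 0.18, with 2 to 4 counts per OGD library. In both, every OGD library was below every control, as it was for Col15a1 (-2.89 ± 0.45), a collagen of basement membrane zones. Its relative Col18a1, the source of endostatin, changed by -0.29 ± 0.20 (adjusted p = 0.2). The falls of Col26a1, Col25a1 and Col15a1 came beside that of the neuron markers given above. Of the endothelial markers 2 fell and 2 rose, and of those of mural cells and fibroblasts 3 fell and 5 rose. The part of any of these was not tested.

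Of the beaded-filament collagen VI genes, Col6a2 changed by 0.24 ± 0.09 (13.72, 13.06 and 11.29 FPKM in controls, 16.63, 15.22 and 15.91 in OGD, adjusted p = 0.0302). This call was lost without control replicate 3 (0.127) or OGD replicate 1 (0.0575). Its partner Col6a1 changed by 0.20 ± 0.10 (adjusted p = 0.0916), and with library totals in place of composition scaling it passed (0.0191). The FPKM ratio of Col6a1 to Col6a2 was 0.475 to 0.508 in controls and 0.406 to 0.430 in OGD. Col6a6 rose by 0.92 ± 0.19, while Col6a4 (-1.43 ± 0.35) and Col6a5 (-1.85 ± 0.44) fell from 0.38 FPKM or less.

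The collagen IV genes Col4a1 (ENSRNOG00000016281) and Col4a2 (ENSRNOG00000023972) moved in opposite directions. Their chains join as 2 alpha1 and 1 alpha2 in the most widespread collagen IV, and the genes lie head to head with a shared promoter. Col4a2 had 23.00, 22.38 and 22.46 FPKM in controls and 10.02, 10.19 and 11.49 in OGD, and fell by 1.18 ± 0.08 (adjusted p = 1.46e-08). Col4a1 had 8.02, 8.34 and 8.53 FPKM in controls and 11.82, 11.48 and 12.09 in OGD, and rose by 0.42 ± 0.07 (adjusted p = 8.26e-05). For both genes the groups were apart. In all, 10 ratios between chains were compared. The FPKM ratio of Col4a1 to Col4a2 was 0.349 to 0.380 in controls, 1.05 to 1.18 in OGD and 1.06 to 1.16 with Wnt3a plus Rspondin 1. The mean log2 ratio differed by 1.61 between OGD and control (exact permutation test, two-sided p = 0.1, the smallest that 3 against 3 allow, and 0.111 adjusted over the 10). Since both genes were apart in opposite directions, no other p was possible. In counts, Col4a2 was above Col4a1 in all controls (1725 to 2778 against 856 to 1406) and below it in all OGD libraries (707 to 1120 against 1111 to 1682).

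**Figure D2:**
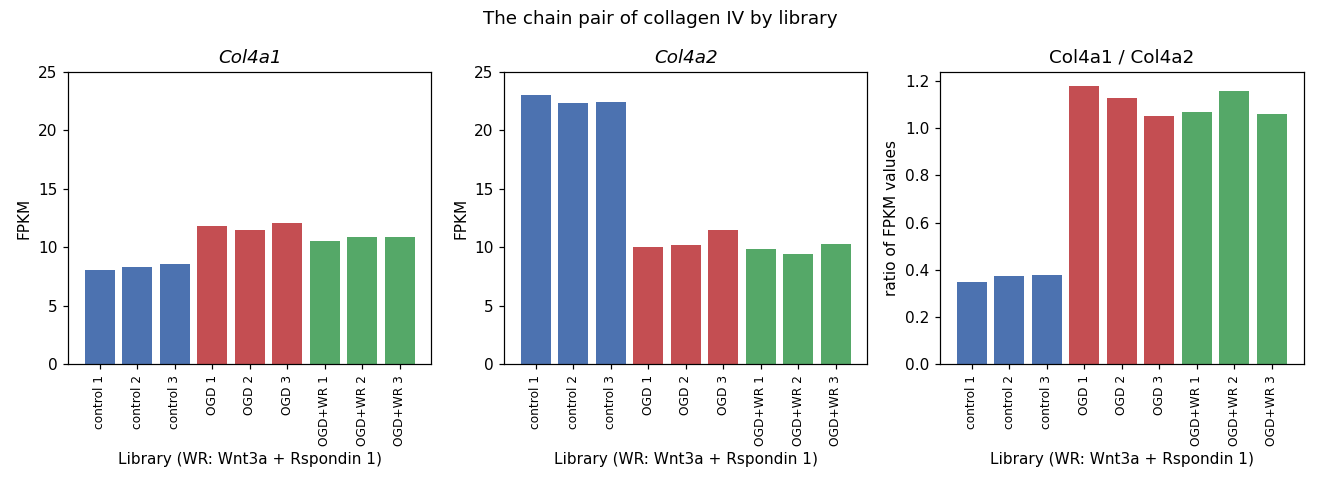
FPKM of Col4a1 and Col4a2 and the ratio of the 2 values in each of the 9 libraries (bars; blue control, red OGD, green OGD with Wnt3a plus Rspondin 1). Col4a1 is higher and Col4a2 lower in all 6 libraries with OGD than in the 3 controls, and the ratio goes from 0.349 to 0.380 to above 1.

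The windows around both starts are shown because the pair shares this stretch yet diverged in level. They run from 250 bases before to 50 after each start and come from RefSeq on GRCr8, chr16:84885347-84885646 on the plus strand for Col4a1 and chr16:84885471-84885770 on the minus strand for Col4a2. The starts are 77 bases apart and the windows share 176 bases. Capitals mark matches on either strand to 4 motifs, the CCAAT box (CCAAT), the GC box (GGGCGG), the hypoxia response core (ACGTG) and a TCF/LEF core (CTTTGA).
Col4a1: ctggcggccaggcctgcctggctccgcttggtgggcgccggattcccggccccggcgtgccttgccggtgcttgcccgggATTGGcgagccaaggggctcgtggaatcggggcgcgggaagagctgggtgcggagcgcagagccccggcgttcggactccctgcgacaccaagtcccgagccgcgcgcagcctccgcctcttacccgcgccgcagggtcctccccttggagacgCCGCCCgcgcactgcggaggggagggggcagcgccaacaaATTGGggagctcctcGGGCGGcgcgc
Col4a2: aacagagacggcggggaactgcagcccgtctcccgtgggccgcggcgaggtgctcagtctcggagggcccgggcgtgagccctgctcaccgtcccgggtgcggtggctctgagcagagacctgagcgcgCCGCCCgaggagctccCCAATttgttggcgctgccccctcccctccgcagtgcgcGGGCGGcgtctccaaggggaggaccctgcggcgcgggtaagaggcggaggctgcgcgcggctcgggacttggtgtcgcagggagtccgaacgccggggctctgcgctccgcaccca
Both windows hold CCAAT and GC boxes and neither holds the other 2 motifs. Over all 33469 windows of the table, 37.5% hold CCAAT, 33.1% GGGCGG, 19.3% ACGTG and 16.1% CTTTGA. Of 36 windows of 33 collagen genes, 11 hold CCAAT (30.6%), 20 GGGCGG (55.6%), 3 ACGTG (8.33%) and 7 CTTTGA (19.4%). A match is a description of letters and not a bound site. In all, 58 of the 76 chains had a window.

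The other collagen IV genes also split. Col4a5, whose chain joins with others in kidney and smooth muscle membranes, rose by 1.56 ± 0.08, from 3.51, 3.39 and 3.80 FPKM to 10.53, 11.60 and 11.41, and its neighbour in the family Col4a6 rose by 1.34 ± 0.17, from 0.430 ± 0.0794 to 1.15 ± 0.0964 FPKM. After OGD, Col4a5 was thus at about the level of Col4a1 and Col4a2. Col4a3 fell by 2.16 ± 0.32 and Col4a4 changed by -0.52 ± 0.23 (adjusted p = 0.0594). Col4a4 passed without control replicate 1 (0.0175). Both stood below 1 FPKM in every library.

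Laminin genes also diverged between chains of one trimer. All 9 tested genes passed, 4 higher and 5 lower, with a median log2 change of -0.45, and none of the groups overlapped, while 73.1% of all tested genes passed and 75.1% did not overlap. Lamb3 had 0.25 FPKM or less and was not tested. The summed level of the family went from 57.7 to 63.8 FPKM in controls to 125 to 154 in OGD and 111 to 133 with Wnt3a plus Rspondin 1.

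Among the beta chains, Lamb2 (ENSRNOG00000047768), found at synapses and around vessels, had 14.47, 15.09 and 13.49 FPKM in controls and 59.96, 47.00 and 43.87 in OGD. It rose by 1.72 ± 0.12 (adjusted p = 4.39e-08). Lamb1 (ENSRNOG00000005678), the chain of the earliest laminins of the embryo, had 10.06, 9.34 and 8.75 FPKM in controls and 1.36, 1.00 and 1.73 in OGD. It fell by 2.88 ± 0.19 (adjusted p = 2.11e-08). The FPKM ratio of Lamb2 to Lamb1 went from between 1.44 and 1.62 in controls to between 25.4 and 47.0 in OGD, and was 26.9 to 50.9 with Wnt3a plus Rspondin 1. The mean log2 ratio differed by 4.61 between OGD and control (exact permutation test, two-sided p = 0.1, adjusted 0.111). As both genes were apart in opposite directions, this p could take no other value.

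Lamc1 (ENSRNOG00000002680), the gamma chain of most laminins, moved with Lamb2. It had 17.54, 19.81 and 17.06 FPKM in controls and 52.70, 47.07 and 47.00 in OGD, and rose by 1.36 ± 0.09 (adjusted p = 1.30e-08). The ratio of Lamb2 to Lamc1 was 0.762 to 0.825 in controls and 0.933 to 1.14 in OGD, while that of Lamb1 to Lamc1 fell from between 0.471 and 0.574 to between 0.0212 and 0.0368. The gamma chain gene Lamc3 fell by 2.06 ± 0.61, at 0.16 FPKM or less in every library.

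The start windows of Lamb1 (chr6:53562846-53563145, plus strand) and Lamc1 (chr13:68051937-68052236, minus strand), RefSeq on GRCr8, are shown as those of 2 chains of one trimer that went opposite ways, chosen after their values were seen, with the same 4 motifs in capitals.
Lamb1: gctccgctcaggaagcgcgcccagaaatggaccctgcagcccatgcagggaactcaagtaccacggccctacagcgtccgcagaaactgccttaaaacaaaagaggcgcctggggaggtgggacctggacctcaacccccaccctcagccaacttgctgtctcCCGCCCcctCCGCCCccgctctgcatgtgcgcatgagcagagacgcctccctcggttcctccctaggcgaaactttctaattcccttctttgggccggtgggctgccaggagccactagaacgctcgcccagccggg
Lamc1: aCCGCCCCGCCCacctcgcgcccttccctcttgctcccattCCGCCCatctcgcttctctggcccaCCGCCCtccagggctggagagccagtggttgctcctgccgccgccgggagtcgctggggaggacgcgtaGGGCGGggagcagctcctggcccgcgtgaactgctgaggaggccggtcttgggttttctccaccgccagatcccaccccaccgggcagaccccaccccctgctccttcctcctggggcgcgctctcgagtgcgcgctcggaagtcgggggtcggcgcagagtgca
GC boxes were the only motif of the 4 in either window, 2 in Lamb1 and 5 in Lamc1, of which the first pair in Lamc1 shares a base. Of the 8 laminin windows, 5 hold GGGCGG (62.5%), 3 CCAAT (37.5%), 1 ACGTG (12.5%) and none CTTTGA. GC content was 63.7% for Lamb1 and 71.7% for Lamc1.

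Of the alpha chains, which carry the receptor-binding end, Lama5 led at every condition. It had 13.27, 13.55 and 12.12 FPKM in controls and 35.78, 28.51 and 27.50 in OGD, with a rise of 1.15 ± 0.12 (adjusted p = 2.10e-06). Lama2, the alpha chain of muscle and astrocyte end-feet, rose by 0.79 ± 0.18 (adjusted p = 0.00154), from 0.51, 0.54 and 0.40 FPKM to 0.79, 0.76 and 1.08. Lama4, known from vessels, changed little in size, from 4.19, 3.71 and 3.91 FPKM to 3.06, 2.90 and 3.24 (-0.45 ± 0.10, adjusted p = 0.000884). Lama1, the alpha chain of the early embryo, fell by 0.92 ± 0.26 at 0.26 FPKM or less. The order by mean FPKM was Lamc1, Lamb2, Lama5, Lamb1 and Lama4 in controls, and Lamb2, Lamc1, Lama5, Lama4 and Lamb1 in OGD, where Lamb2 and Lamc1 overlapped. The plot of laminin chains by library shows that Lamb1 dropped while Lamb2, Lamc1 and Lama5 rose.

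**Figure D3:**
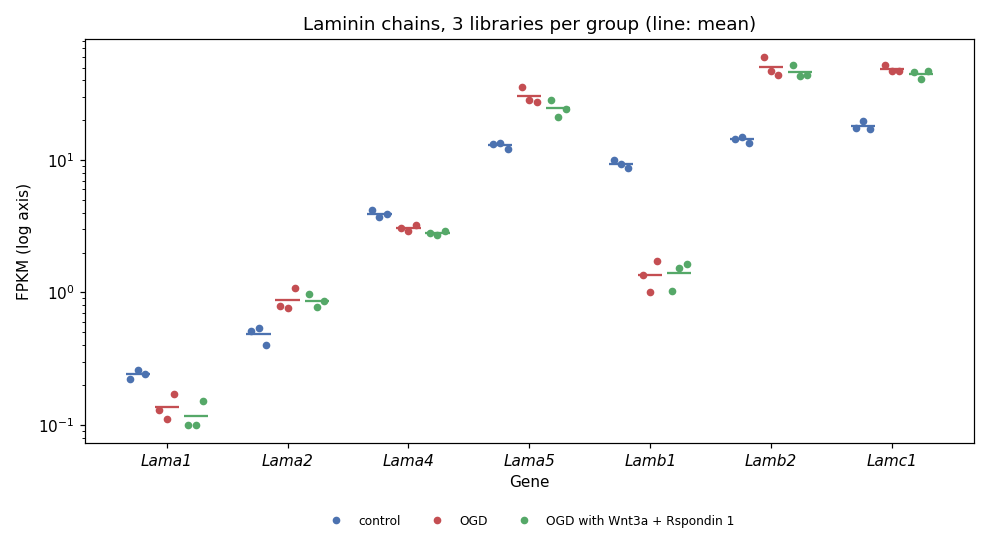
FPKM (log axis) of 7 laminin genes in each library (points; lines are group means of 3). Lamb1 falls from 8.75 to 10.06 in controls to 1.00 to 1.73 in OGD while Lamb2 rises from 13.49 to 15.09 to 43.87 to 59.96.

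Integrin genes were more often higher than lower after OGD. Of 24 subunits, 19 were tested, 11 were higher and 4 lower, with a median log2 change of 0.89, against 36.3% higher and 36.8% lower among all tested genes. The libraries of the groups did not overlap for 13 of the 19 (75.1% of all tested genes). The 5 not tested were Itga2, Itga10, Itgax, Itgb6 and Itgb7, at 0.25 FPKM or less in every library. Summed FPKM over the 24 genes was 98.0 to 107 in controls, 252 to 274 in OGD and 248 to 259 with Wnt3a plus Rspondin 1.

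Of the 11 rises, 4 were of beta and 7 of alpha subunits. Among the beta subunits, Itgb1, the partner of most alpha subunits, was the most abundant, at 37.52, 41.04 and 42.50 FPKM in controls and 82.40, 102.63 and 99.94 in OGD. It rose by 1.15 ± 0.09 (adjusted p = 6.72e-08), and the groups did not overlap. Itgb4 (ENSRNOG00000005580), which pairs with alpha6 to bind laminin, showed the largest rise of all chains tested. It had 4.60, 4.98 and 4.80 FPKM in controls and 53.90, 45.66 and 42.78 in OGD, a change of 3.20 ± 0.12 (adjusted p = 3.76e-10). It was thus the most abundant subunit after Itgb1 in OGD, having been below 6 others in controls by mean FPKM. Itgb8, which pairs with alpha-v and activates latent TGF-beta, had 12.54, 15.31 and 14.77 FPKM in controls and 33.42, 34.52 and 34.23 in OGD (1.18 ± 0.09, adjusted p = 4.77e-08). Its partner Itgav rose by 1.02 ± 0.11, from 9.16, 9.64 and 9.82 FPKM to 17.68, 22.92 and 21.11. The FPKM ratio of Itgav to Itgb8 was 0.630 to 0.730 in controls and 0.529 to 0.664 in OGD, with overlap (exact permutation test on the mean log2 ratio, two-sided p = 0.2, adjusted 0.2).

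The laminin-binding alpha subunits went separate ways. Itga7 (ENSRNOG00000007905), the laminin receptor of muscle, had 8.26, 7.21 and 8.06 FPKM in controls and 39.40, 37.44 and 36.84 in OGD, and rose by 2.19 ± 0.08 (adjusted p = 3.76e-10). Itga6 had 8.38 to 9.43 FPKM in controls and 15.60 to 19.90 in OGD, and rose by 0.89 ± 0.11. Itga3, the receptor through which migrating cortical neurons bind laminin and reelin, had 12.39, 11.67 and 11.05 FPKM in controls and 2.22, 1.81 and 2.64 in OGD. It fell by 2.45 ± 0.12 (adjusted p = 1.96e-09). Itga3 was the highest of the 3 in every control and the lowest in every OGD library. The ratio of Itga7 to Itga3, alpha subunits that do not pair with each other, went from between 0.618 and 0.729 to between 14.0 and 20.7. The mean log2 ratio differed by 4.69 (exact permutation test, two-sided p = 0.1, adjusted 0.111). Both genes were apart in opposite directions, so this p could take no other value. Relative to Itgb1, the ratio of Itga7 was 0.176 to 0.220 in controls and 0.365 to 0.478 in OGD. That of Itga6 was 0.219 to 0.223 and 0.173 to 0.194. The fall of Itga3 came beside that of the neuron markers, and the rises of Itga7, Itgb4 and Itgb8 beside those of astrocyte and microglia markers. The other lists moved both ways. Neural progenitor markers had 7 higher and 1 lower, and oligodendrocyte lineage markers 6 and 3. Markers of mural cells and fibroblasts had 5 higher and 3 lower, and endothelial markers 2 and 2. The part of any list was not tested.

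**Figure D4:**
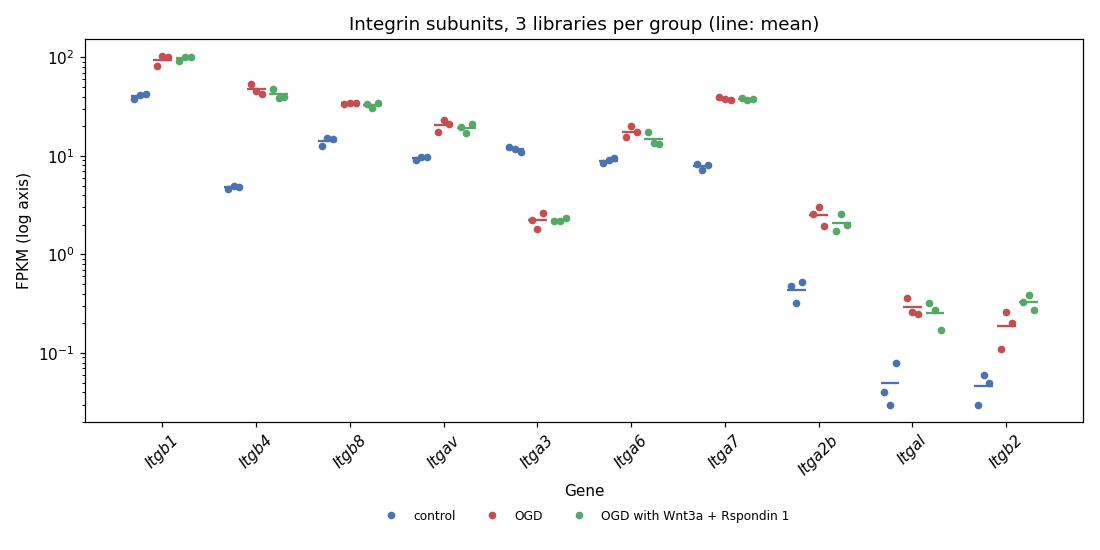
FPKM (log axis) of 10 integrin genes in each library (points; lines are group means of 3). Itgb4 rises from 4.60 to 4.98 in controls to 42.78 to 53.90 in OGD, Itga3 falls from 11.05 to 12.39 to 1.81 to 2.64, and the OGD libraries with and without Wnt3a plus Rspondin 1 lie close together.

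Collagen-binding alpha subunits were scarce. Itga11, known from fibroblasts, fell by 3.43 ± 0.54, from 0.61, 0.67 and 0.67 FPKM to 0.11, 0.06 and 0.03, and Itga1 changed by 0.89 ± 0.53 (adjusted p = 0.145). Among the subunits that read the RGD sequence, Itga2b, the platelet subunit, rose by 2.32 ± 0.23, from 0.48, 0.32 and 0.52 FPKM to 2.55, 3.03 and 1.94 (adjusted p = 1.12e-06), while the adjusted p was 0.292 for Itga5 and 0.98 for Itga8. Its platelet partner Itgb3 did not move with it (0.46, 0.30 and 0.43 FPKM against 0.20, 0.15 and 0.35). Its change of -1.05 ± 0.42 (adjusted p = 0.0396), on 5 to 10 counts per OGD library, lost its call in 9 of the 12 alternatives, among them DESeq2 (0.16) and the fits without control replicate 1 (0.163) or 3 (0.0894) or OGD replicate 1 (0.0932) or 2 (0.176). Itga4 fell by 2.87 ± 0.38 from 0.40, 0.61 and 0.50 FPKM to 0.04, 0.05 and 0.12.

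The leukocyte integrins tested were low and higher in OGD, and Itgam was not among the symbols found. Itgal rose by 2.30 ± 0.42, from 0.04, 0.03 and 0.08 FPKM to 0.36, 0.26 and 0.25, Itgad by 1.75 ± 0.38 and their common partner Itgb2 by 1.93 ± 0.48, on 2 to 4 counts per control library and 5 to 18 per OGD library. Itgae changed by 0.73 ± 0.29 (adjusted p = 0.0354) with overlapping groups, a call lost without control replicate 1 (0.124) or 2 (0.109) or OGD replicate 2 (0.156) or 3 (0.0582). Beside them the 14 microglia markers went from a summed 4.47 to 6.60 FPKM to 25.2 to 28.3.

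Genes that process, anchor or read these proteins were taken from 4 lists, to be read against the 73.1% of all tested genes that passed, 36.3% higher and 36.8% lower. Of 25 collagen-processing genes tested, 13 rose and 7 fell (median 0.47). The most abundant were Serpinh1, the collagen chaperone, which rose by 1.34 ± 0.11 from 205 ± 21.8 to 550 ± 80.2 FPKM, and the prolyl isomerase gene Ppib (0.66 ± 0.07). The crosslinking enzyme gene Loxl4 rose by 3.20 ± 0.39 and PCOLCE2, an enhancer of procollagen cleavage, by 2.13 ± 0.22. The procollagen protease genes Adamts2 and Adamts3 fell by 1.89 ± 0.24 and 1.73 ± 0.12. Of 9 basement membrane partners, 4 rose and 4 fell (-0.25). The nidogens, which link laminin to collagen IV, rose, Nid2 by 2.55 ± 0.12 from 7.00 ± 0.175 to 43.5 ± 6.15 FPKM and Nid1 by 1.32 ± 0.07. Agrn, the proteoglycan agrin, fell by 0.63 ± 0.09, Pxdn, which crosslinks collagen IV, by 0.77 ± 0.12 and Npnt, a ligand of integrin alpha8, by 2.42 ± 0.21.

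Of 11 receptors that are not integrins, 8 rose and 2 fell (0.91). Cd151, a tetraspanin that binds laminin-binding integrins, rose by 1.54 ± 0.10 from 114 ± 6.19 to 352 ± 47.5 FPKM, Adgrg1 by 0.91 ± 0.08 and the syndecan gene Sdc4 by 1.34 ± 0.07, while the syndecan genes Sdc1 and Sdc3 fell by 1.96 ± 0.14 and 1.51 ± 0.09. Of 20 integrin adaptors tested, 16 rose and 2 fell (0.92). Tns3, a tensin, rose by 1.99 ± 0.08 and the parvin gene Parvb, the highest of the list by mean FPKM, by 1.15 ± 0.08. Ilk, its kinase-like partner, rose by 0.76 ± 0.08 and Lims2 by 1.95 ± 0.26, while the talin gene Tln2 fell by 0.84 ± 0.11 and Zyx by 0.41 ± 0.11. Of the genes that the name pattern caught without being chains, Itgb1bp1 rose by 1.06 ± 0.09, Col4a3bp fell by 0.51 ± 0.12 and Itgbl1 fell by 1.72 ± 0.45. Itgb3bp had an adjusted p of 0.73, and Itgb1bp2 was not tested.

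With Wnt3a plus Rspondin 1 added to OGD, none of the 64 tested chains passed an adjusted p of 0.05 in edgeR's quasi-likelihood test against OGD alone, and 0.197% of all tested genes did. DESeq2 called 1, Col5a3. Groups that share the OGD libraries enter both comparisons, so the values are given side by side and no relation between them is drawn. At an unadjusted p under 0.05 there were 9 of 36 collagens (8 lower, 1 higher), 1 of 9 laminins and 2 of 19 integrins, all 3 of the latter lower, against 5.73% of all tested genes, 2.99% lower and 2.74% higher. The median log2 change was -0.13 for collagens, -0.13 for laminins and -0.07 for integrins, and 0.00 for all tested genes.

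Of the 36 collagens, 23 changes were below 0 and 13 above, and none passed. The libraries of the groups did not overlap for 10 of the 36 collagens, 9 lower and 1 higher, against 9.57% of all tested genes, 4.85% lower and 4.73% higher. With libraries scaled by totals there were 7 lower and 2 higher. Over all 13693 genes 514 were then lower (3.75%) and 825 higher. Col5a3 had 5.22, 6.37 and 6.27 FPKM in OGD and 4.25, 4.61 and 4.50 with Wnt3a plus Rspondin 1, so that all treated libraries were below all OGD ones. Its change was -0.44 ± 0.10 (adjusted p = 0.115), and the gene passed in DESeq2 (adjusted p = 0.00352) and in edgeR without OGD replicate 1 (0.0134). Col2a1 had 0.86, 0.83 and 0.87 FPKM in OGD and 0.40, 0.56 and 0.64 with the proteins (-0.71 ± 0.20, adjusted p = 0.367). Among the abundant collagens, Col16a1 had 65.19, 63.32 and 58.90 FPKM against 54.97, 54.70 and 52.90 (-0.23 ± 0.07, adjusted p = 0.522) and Col9a3 18.70, 17.97 and 19.17 against 15.98, 16.39 and 13.86 (-0.29 ± 0.09, adjusted p = 0.486). Col6a1 (-0.24), Col6a2 (-0.26), Col20a1 (-0.16), Col4a1 (-0.15) and Col4a2 (-0.12) were the others whose libraries all lay lower in scaled CPM, and Col4a6 (0.19) the one whose libraries all lay higher. Summed collagen FPKM was 240 to 245 in OGD and 214 to 226 with the proteins, still above the 165 to 174 of controls. Beside this, 1 of 10 tested astrocyte markers passed (Gja1, 0.38), while 8 of the 10 changes were below 0 and the libraries of 3 all lay lower, Gfap (-0.25) and Slc4a4 (-0.37) among them. Summed astrocyte FPKM ran from 6730 to 7330 in OGD and from 6320 to 6620 with the proteins, and the part of these markers in the result was not tested.

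**Figure D5:**
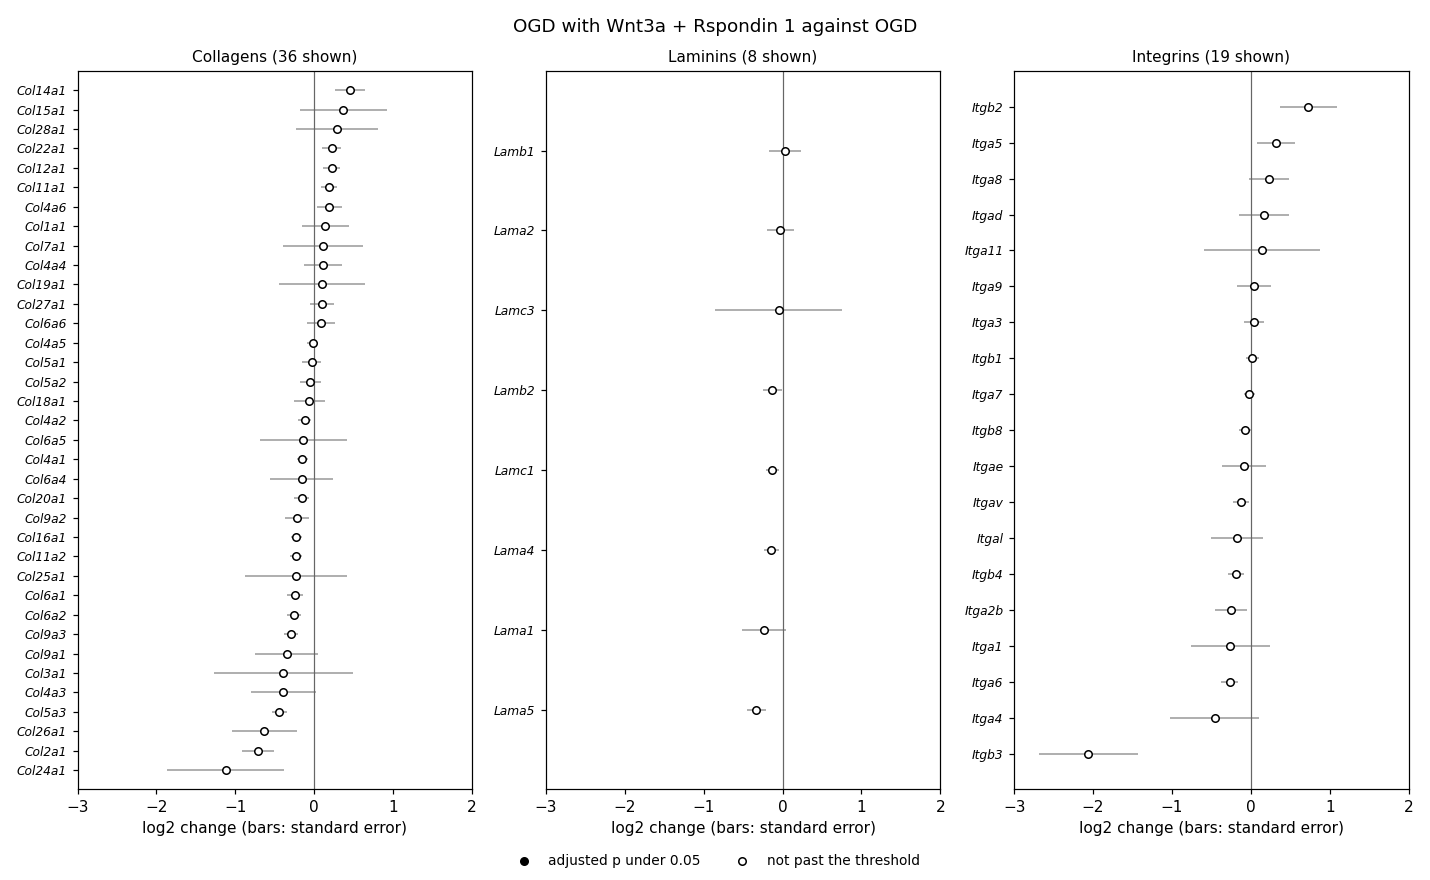
Log2 change on adding Wnt3a plus Rspondin 1, relative to OGD alone (x axis, bars are the standard error) for the tested chains of the 3 families; open points did not pass an adjusted p of 0.05. No chain shown passed; 23 of 36 collagens lie left of 0, and Col3a1 and Lamc3 have the widest bars.

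Among laminins the change closest to the threshold was that of Lama5, with 35.78, 28.51 and 27.50 FPKM in OGD and 28.55, 21.37 and 24.19 with the proteins (-0.33 ± 0.12, adjusted p = 0.66), and the groups overlapped. Lamc1 (-0.13 ± 0.08) and Lamb2 (-0.13 ± 0.12) overlapped too, and Lamb1 stood at 1.03, 1.54 and 1.64 FPKM with the proteins, inside the 1.00 to 1.73 of OGD. Lama4 was the one laminin whose libraries all lay lower (-0.14 ± 0.10, adjusted p = 0.976), and it overlapped when libraries were scaled by totals. Among integrins, Itgb3 had 5, 6 and 10 counts in OGD and 2, 1 and 2 with the proteins (-2.06 ± 0.63, adjusted p = 0.463), and Itga6 changed by -0.27 ± 0.11 (adjusted p = 0.806). Itgb1 stood at 92.54, 99.76 and 101.15 FPKM with the proteins (0.02 ± 0.08), Itga7 at 38.33, 37.34 and 38.00 (-0.02 ± 0.07) and Itgb4 at 47.63, 38.91 and 39.96 (-0.19 ± 0.10). Itgb2 stood at 0.33, 0.39 and 0.27 FPKM with the proteins, above the 0.11, 0.26 and 0.20 of OGD (0.73 ± 0.36, adjusted p = 0.915), on 14 to 21 counts per library. In scaled CPM the groups did not overlap for 3 of 19 integrins (15.8%), against 9.57% of all tested genes. Itgb2 lay higher, and Itgb3 and Itgb8 (-0.07 ± 0.08) lower. With libraries scaled by totals, 1 lay higher and 1 lower.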

How the data were processed

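RNA of 9 libraries of cultured rat cortical cells was sequenced from TruSeq libraries, per the labels' protocols. The authors deposited whole-number counts and FPKM values per gene, in tables whose columns for the same library are identical. Bowtie 0.12.2 and 2 mouse builds, mm8 and mm9, appear in the submitters' processing notes although the samples are rat. For the rat build, annotation, counter and strand setting, the source is not stated in the labels, and overlapping or near-identical genes may share reads.

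The counts were fitted over all 9 libraries with edgeR 4.0.16 (R 4.3.3), with composition scaling (TMM), a filter keeping genes with at least about 10 counts in 3 libraries and 15 in all, 3 group means and the robust quasi-likelihood test, adjusted by Benjamini-Hochberg over all 13693 tested genes. DESeq2 1.42.0 and other scalings, filters and subsets were alternatives. The test was tested on simulated counts, with known changes set in genes with a mean above 1 CPM. For Wnt3a plus Rspondin 1 against OGD it found 44.8% of log2 changes of 0.5, 83.6% of 1 and 98.5% of 2. For OGD against control the shares were 43.3%, 91% and 98.5%. In each simulation 67, 67 and 66 genes carried changes of 0.5, 1 and 2, among 13551 or more tested. The adjusted p depends on how many genes change. In the real data 73.1% of tested genes passed in OGD against control and 0.197% with Wnt3a plus Rspondin 1. The shares therefore hold for the simulated setting and were not measured at the real ones. With Wnt3a plus Rspondin 1, changes of 0.5 or less could often go without a call. FPKM served for levels and for 10 ratios, which were compared by exact permutation tests. No rule for choosing the pairs was set beforehand. At these depths 3 counts, the floor, correspond to 0.12 to 0.21 CPM, for counting error only.

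The members and lists were chosen with earlier results of these data known. Named per family were the 5 highest by mean FPKM, up to 4 rises and 4 falls, the 2 smallest p with Wnt3a plus Rspondin 1, and fixed genes. Further members are named to account for each class, after their values were seen. The lists covered neurons, astrocytes, microglia, neural progenitors, the oligodendrocyte lineage, endothelium, mural cells and fibroblasts, and 4 groups of partner genes. The figures leave out 1 tested laminin gene, which enters the counts and is not reported here.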

Additional observations from a re-analysis of the deposited data

How the results depend on the processing

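In OGD against control, 51 of the 56 called members kept their call and direction in every alternative run, and 5 lost it in some (Col6a2, Col2a1, Col14a1, Itgae and Itgb3). No called member reversed. Without a call, Itga8 (-0.01) was 0.08 with library totals, 0.01 with only the 6 libraries compared and -0.24 to 0.19 when 1 library was left out. Leaving out 1 library gave -0.19 to 0.38 for Col1a1, -0.28 to 2.13 for Col3a1 and -0.10 to 0.44 for Itgb3bp. With Wnt3a plus Rspondin 1 it gave -0.07 to 0.35 for Col1a1, -1.01 to 1.29 for Col3a1, -0.06 to 0.08 for Itgb1, -0.13 to 0.13 for Lama2, -0.17 to 0.23 for Lamb1 and -0.23 to 0.02 for Lamb2.

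Calls with Wnt3a plus Rspondin 1 over all genes were few and varied with the setting. The 24 higher were 60 in DESeq2, 43 with the replicate block, 12 with only the 6 libraries compared and 10 to 38 without 1 library. The 3 lower were 5 with RLE size factors, 7 without a filter, 39 in DESeq2, 22 with the replicate block and 2 to 11 without 1 library. Collagens called lower went from 0 to 1 in DESeq2, and were 0 to 1 without 1 library. The collagens lower at an unadjusted p under 0.05 numbered 5 without Wnt3a plus Rspondin 1 replicate 3 and 9 without OGD replicate 2, a count added after seeing the data. The cause was not tested.

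To compare replicate numbers, the group mean of each gene was subtracted from its log2 CPM, and the remaining deviations were correlated between libraries. These are not correlations of the expression levels themselves. The deviations of same-numbered libraries correlated at 0.273, -0.055 and 0.105 (OGD with control), and those of differently numbered ones at -0.319 to 0.278. Between Wnt3a plus Rspondin 1 and OGD libraries, the same numbers gave 0.232, 0.073 and 0.267 and different numbers -0.238 to -0.024. The labels state no pairing, so the main fit took none, and the replicate block was run as an alternative. Whether the numbers mark pairs was not tested. With the replicate block, Itgb3 lost its call (adjusted p = 0.0507) and Col4a4 gained one (0.0492). Genes near the floor, such as Itgb2 and Itgb3, rest on few counts.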
